A study of Mus musculus with 15 samples.

Results

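A set of 10 genes that encode feedback inhibitors of mitogen-activated protein kinase (MAPK) signaling were followed in bone marrow-derived macrophages (BMDMs) with and without STAT5: the phosphatase genes Dusp1, Dusp2, Dusp4, Dusp5, Dusp6 and Dusp16, the Sprouty genes Spry1 and Spry2, and the Spred genes Spred1 and Spred2. They were taken by name, for what their products do, and make up 10 of the 55385 genes in the deposited count table. The choice was made with earlier results of these data known, so it was not blind to them. The table holds 15 bulk RNA-seq libraries in 6 groups, from 2 STAT5fl/fl and 3 STAT5cKO mice, each of which gave 3 libraries. The number in each library title was taken as the mouse. The methods state that a further STAT5fl/fl replicate was removed at quality control. All mice were BALB/c and 6 weeks old, and all carried floxed Stat5 alleles. STAT5cKO mice also carried Csf1r-iCre, a Cre recombinase driven by the promoter of the CSF-1 receptor gene that is active in myeloid cells as a class and not in macrophages alone. The BMDMs of each mouse were kept for 2 h in serum-free DMEM, in 20 ng/mL recombinant mouse GM-CSF (rmGM-CSF) or in conditioned medium of 4T1 cells (4T1 CM), a mouse mammary tumor line. Conditioned medium is a mixture of whatever the tumor cells secrete.

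MAPK cascades pass a signal from receptors through RAS, RAF and MEK to ERK, and in parallel branches to JNK and p38, by successive phosphorylation. Dual-specificity phosphatases (DUSPs) remove phosphate from both the tyrosine and the threonine of the activated kinase, whereas Sprouty and Spred proteins act above ERK, at the level of RAS and RAF. Many of these genes are themselves induced by MAPK signaling, and their products thereby close a negative feedback loop. In macrophages such loops are known to limit the size and length of cytokine responses. GM-CSF, whose receptor contains the β chain Csf2rb, signals through JAK2 to STAT5 and also through RAS to ERK.

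The libraries held between 16016736 and 22883108 counted reads (median 21379480), so that 1 normalized CPM, a read count scaled to the size and composition of its library, stood for about 15.65 to 24.27 reads. Stat5a and Stat5b were read first as a check of the labels. Stat5a measured 29.0 to 45.1 normalized CPM in the 6 STAT5fl/fl libraries and at most 0.142 in the 9 STAT5cKO libraries, and Stat5b measured 60.9 to 77.8 against at most 0.189. All 9 macrophage markers, among them Csf1r, Adgre1 and Lyz2, exceeded 1 CPM in every group. Their summed level was higher in STAT5cKO than in STAT5fl/fl BMDMs in each treatment, at 31286 to 36997 against 24835 to 25329 CPM in DMEM, 35077 to 38146 against 26120 to 27670 in rmGM-CSF and 37028 to 46877 against 29245 to 30154 in 4T1 CM. Most of this sum was Lyz2, which alone took 1.63 to 3.28% of the reads. Of the other marker lists, 5 T and NK cell markers apart from Cd4 reached at most 2 reads in any library, Ly6g, Pax5 and Cpa3 were at 0 throughout, and the epithelial keratins Krt8 and Krt18 reached at most 2 reads. The neutrophil, dendritic cell, mast cell, erythroid and epithelial lists each summed to at most 4.67 CPM in any library. The epithelial sum was mostly Cdh1 and was higher in STAT5fl/fl BMDMs in the stimuli, at 1.18 to 1.43 against at most 0.0491 CPM in rmGM-CSF and 3.21 to 4.34 against 1.23 to 2.17 in 4T1 CM. Cd4 was lower in STAT5cKO (T and NK cell list, 5.80 to 7.36 CPM against 8.91 to 10.5), and the stromal list, mostly Pdgfrb, was higher within each treatment (7.23 to 12.9 against 4.13 to 8.69 CPM over all treatments). The part of these marker differences in the genotype results below was not tested. In bulk RNA, fewer cells that carry a transcript and less of it per cell cannot be told apart.

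In the mouse genome (GRCm38, gene models as counted) the ERK phosphatase genes lie at chr19:53529109-53542431 (Dusp5, plus strand) and chr10:99263231-99267489 (Dusp6, plus). The nuclear phosphatase genes of broader or ERK and JNK specificity lie at chr17:26505590-26562128 (Dusp1, minus), chr2:127336159-127338376 (Dusp2, plus) and chr8:34807297-34819894 (Dusp4, plus), and the JNK and p38 phosphatase gene at chr6:134715468-134792625 (Dusp16, minus). Spry1 lies at chr3:37639947-37644598 (plus), Spry2 at chr14:105891947-105896819 (minus), Spred1 at chr2:117121374-117182279 (plus) and Spred2 at chr11:19924375-20024026 (plus). Dusp5 overlaps an antisense RNA gene at its 5′ end, and reads were counted by strand.

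Upstream sequence was available from RefSeq (GRCm38.p6) for 9 of the 10 genes, all but Dusp4. The windows of Dusp1, Dusp5, Dusp16 and Spred1 are shown because Dusp1 and Dusp5 were the genes most clearly higher without STAT5 in 4T1 CM, and Dusp16 and Spred1 those whose response to rmGM-CSF differed between the genotypes. Each window runs from 250 to 51 bases before the RefSeq transcription start, 5′ to 3′ on the strand of the gene, at chr17:26508523-26508722 (minus strand) for Dusp1, chr19:53528895-53529094 (plus) for Dusp5, chr6:134792679-134792878 (minus) for Dusp16 and chr2:117120821-117121020 (plus) for Spred1. Capitals mark matches on either strand to the cAMP response element TGACGTCA, its half-site TGACG or the CArG box, the binding motif of serum response factor.
Dusp1: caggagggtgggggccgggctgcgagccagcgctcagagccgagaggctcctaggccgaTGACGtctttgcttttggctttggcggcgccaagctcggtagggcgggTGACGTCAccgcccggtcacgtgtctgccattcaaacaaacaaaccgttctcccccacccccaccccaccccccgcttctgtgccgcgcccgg
Dusp5: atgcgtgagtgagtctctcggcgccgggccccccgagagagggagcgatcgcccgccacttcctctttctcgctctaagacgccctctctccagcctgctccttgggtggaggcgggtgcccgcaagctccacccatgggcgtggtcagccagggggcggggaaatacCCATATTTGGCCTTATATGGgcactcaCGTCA
Dusp16: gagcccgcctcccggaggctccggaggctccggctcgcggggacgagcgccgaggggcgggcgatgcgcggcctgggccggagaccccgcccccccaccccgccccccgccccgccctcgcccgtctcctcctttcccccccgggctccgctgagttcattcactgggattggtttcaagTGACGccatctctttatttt
Spred1: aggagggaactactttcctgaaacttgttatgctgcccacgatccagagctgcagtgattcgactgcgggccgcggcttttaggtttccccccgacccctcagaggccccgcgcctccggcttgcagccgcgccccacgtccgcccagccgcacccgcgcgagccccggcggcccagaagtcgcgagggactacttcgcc

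The Dusp5 window held 2 adjoining CArG boxes, CCATATTTGG and CCTTATATGG, which start 82 and 72 bases before the transcription start. A CArG box occurred in 1.47% of 32851 mouse promoter windows of 250 bases, and among the 9 windows of these genes only in that of Dusp5. Dusp1 held a complete cAMP response element 143 bases before its start, which contains the half-site on both strands, and a separate half-site at 191. The complete element occurred in 1.55% of all windows and in 1 of these 9. The half-site occurred in 17.8% of all windows and in those of Dusp1, Dusp5, Dusp16 and Spred2. The 9 windows were 56.0 to 70.8% G and C, against a median of 52.4% over all windows. The part of this in the motif counts was not tested. The Spred1 window held none of the motifs searched. No match to the STAT motif TTCNNNGAA, found in 7.02% of all windows, to the AP-1 motif TGANTCA (6.75%), to the ETS motif CCGGAAG (6.91%), to the EGR motif GCGTGGGCG (0.536%) or to TATAAA (12.4%) fell in the 9 windows, which says only that these letters were not there.

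Levels were compared between genes as TPM, which scale the reads by the length of the transcript. In DMEM Dusp4, a nuclear phosphatase of ERK and JNK, and Spred1, an inhibitor of RAS signaling, were the most abundant, at 51.5 ± 1.86 and 43.7 ± 3.78 TPM (SD, n = 2) in STAT5fl/fl BMDMs and 59.6 ± 4.71 and 53.5 ± 9.65 TPM (SD, n = 3) in STAT5cKO BMDMs. Dusp6, Spry2, Dusp1, Spred2 and Dusp16 followed between 10.4 and 19.5 mean TPM, in an order whose neighbors mostly lay within each other's spread. Dusp2 and Dusp5 were low, at 3.29 to 5.03 mean TPM. The summed TPM of the 10 genes was 166 to 178 in STAT5fl/fl and 180 to 204 in STAT5cKO libraries in DMEM, 664 to 673 and 699 to 750 in rmGM-CSF, and 776 to 819 and 987 to 1051 in 4T1 CM. The sum did not overlap between the genotypes in any treatment. Among single genes tested, 39.9% in DMEM, 49.0% in rmGM-CSF and 39.3% in 4T1 CM had genotypes apart as well, in normalized CPM.

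**Figure D1:**
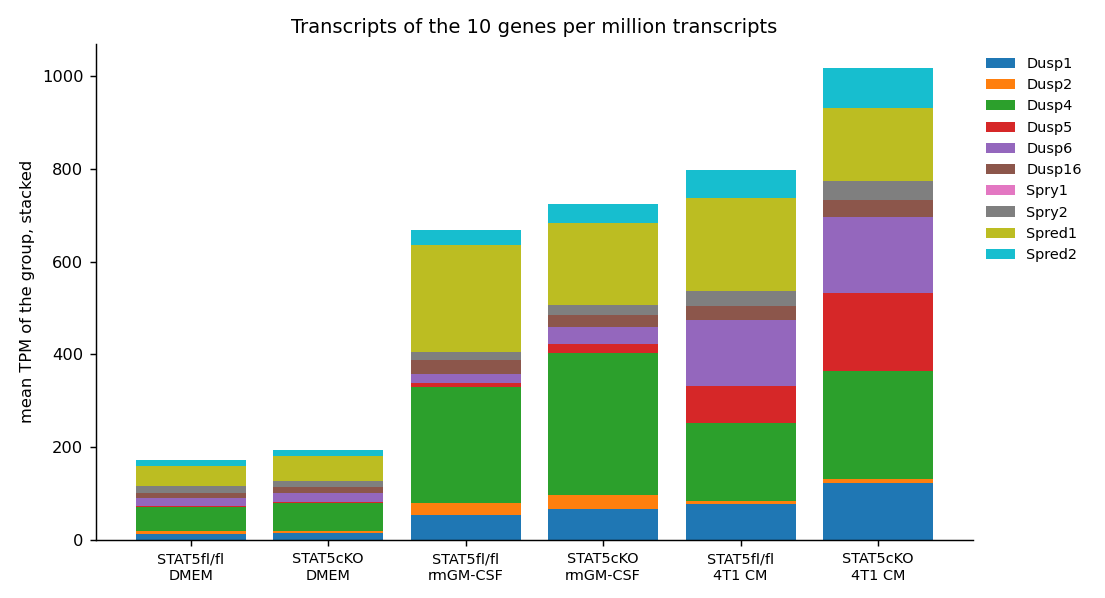
Mean TPM of the 10 genes, stacked, in the 6 groups (2 mice for STAT5fl/fl, 3 for STAT5cKO). In 4T1 CM the stack reached 798 TPM in STAT5fl/fl and 1019 TPM in STAT5cKO BMDMs, and the segment of Dusp5, 3.29 and 3.42 TPM in DMEM, became 79.2 and 167 TPM.

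The make-up of this pool differed between the stimuli. Dusp4 and Spred1 together supplied most of it in rmGM-CSF, with mean shares of 37.4 and 34.7% in STAT5fl/fl and 42.2 and 24.5% in STAT5cKO BMDMs. In 4T1 CM the share of Dusp4 was 21.2 and 23.0%, that of Dusp5 was 9.90 and 16.3% and that of Dusp6 was 17.7 and 16.2%. In rmGM-CSF, Dusp5 had held 1.35 and 2.54% and Dusp6 3.03 and 5.21%. Spry1, an inhibitor of receptor signaling to ERK, was barely present: it had 1 to 18 reads in every library, at most 0.883 normalized CPM, so that it failed the filter on low counts and was not tested. The other 9 genes exceeded 1 CPM in all 15 libraries.

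**Figure D2:**
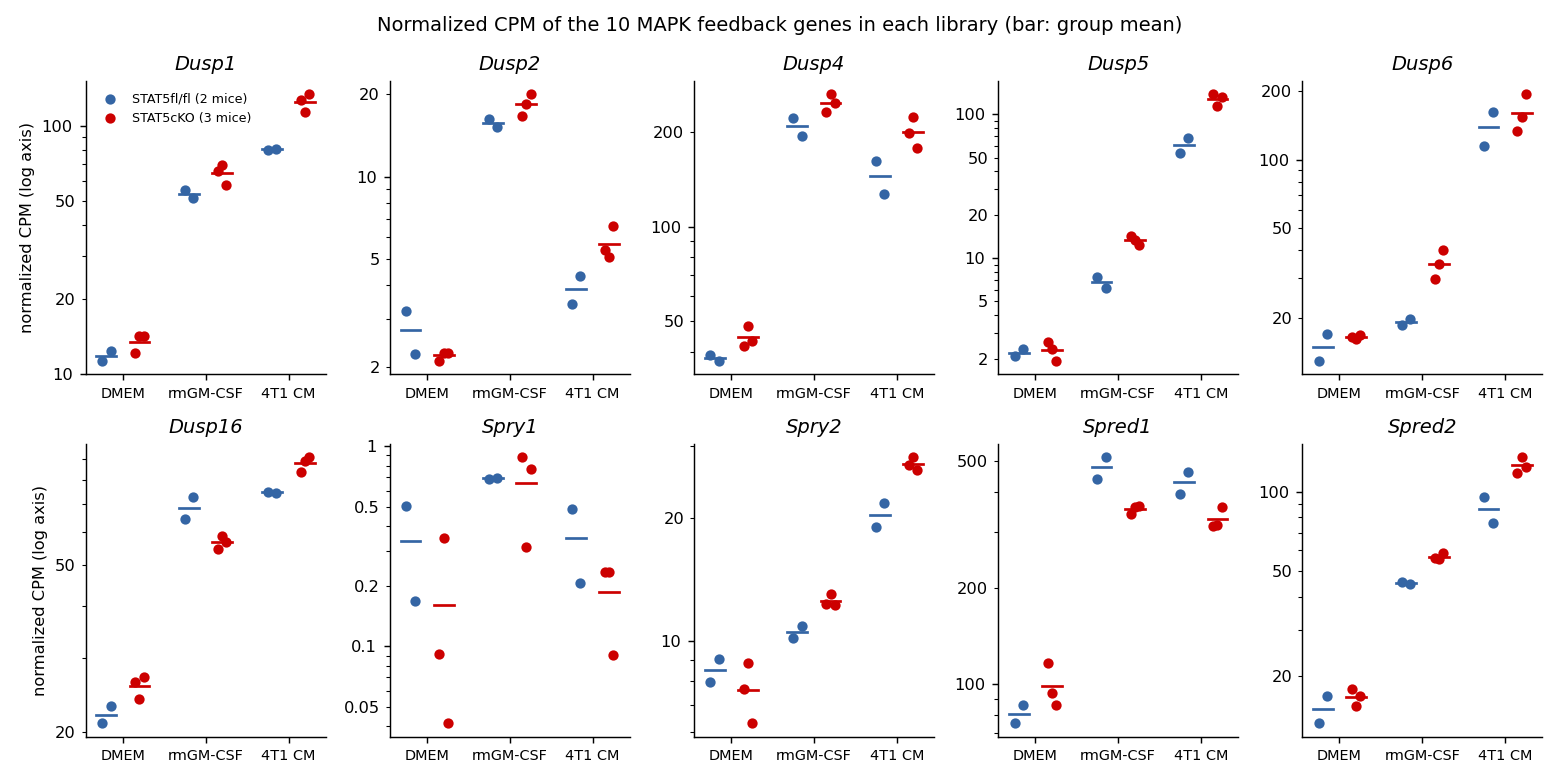
Normalized CPM (log axis, separate for each gene) of the 10 genes in each library, by treatment, with the group mean as a bar. Every tested gene lay higher in 4T1 CM than in DMEM in both genotypes, Dusp2 and Dusp4 were highest in rmGM-CSF, and Spred1 was the gene whose STAT5fl/fl points lay above those of STAT5cKO in both stimulated conditions.

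Stimulation with rmGM-CSF for 2 h asked what the cytokine does on its own. In STAT5fl/fl BMDMs 7 of the 9 tested genes rose and none fell, whereas 28.7% of the 13005 genes tested were called in either direction, 16.0% higher and 12.7% lower (edgeR quasi-likelihood F-test, Benjamini-Hochberg adjusted p under 0.01). The median log2 fold change of the 9 genes was 1.64, and that of all genes tested was -0.01. Spred1 (log2 fold change 2.57 ± 0.13 SE), Dusp2 (2.53 ± 0.18), Dusp4 (2.44 ± 0.12) and Dusp1 (2.17 ± 0.11) rose most, followed by Dusp16 (1.64 ± 0.09), Dusp5 (1.61 ± 0.20) and Spred2 (1.58 ± 0.12). Dusp6, the cytoplasmic phosphatase specific for ERK, had a log2 fold change of 0.36 ± 0.20 (adjusted p = 0.17), and Spry2 had 0.31 ± 0.14 (adjusted p = 0.083), both with rmGM-CSF libraries that did not overlap the DMEM libraries, which held for 71.7% of all genes tested. In STAT5cKO BMDMs all 9 rose (23.5% of all genes called, 13.4% higher), with Dusp2 at 3.05 ± 0.15, Dusp5 at 2.54 ± 0.14, Dusp6 at 1.06 ± 0.15 and Spry2 at 0.73 ± 0.11. The median was 1.85 against 0.00 for all genes.

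Stimulation with 4T1 CM asked what the factors released by tumor cells do. Of the 9 genes 8 rose in STAT5fl/fl and 9 of 9 in STAT5cKO BMDMs, where 19.1 and 19.0% of all genes tested were called higher, 18.0 and 18.2% lower and 37.2% were called in either direction in each genotype. The median log2 fold changes were 2.41 and 2.16, against 0.01 over all genes in each genotype. Dusp5, a nuclear phosphatase specific for ERK, rose most, by 4.79 ± 0.16 on the log2 scale in STAT5fl/fl (27.6-fold) and 5.79 ± 0.13 in STAT5cKO (55.5-fold). Dusp6 rose 9.20-fold and 9.66-fold, Dusp1, which acts on p38 and JNK as well as on ERK, 6.79-fold and 9.26-fold, and Spred2, like Spred1 an inhibitor of RAS to ERK signaling, 5.71-fold and 7.57-fold. The gene not called was Dusp2 in STAT5fl/fl (log2 fold change 0.50 ± 0.20, adjusted p = 0.046), a nuclear phosphatase of immune cells whose change in STAT5cKO was 1.35 ± 0.16.

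**Figure D3:**
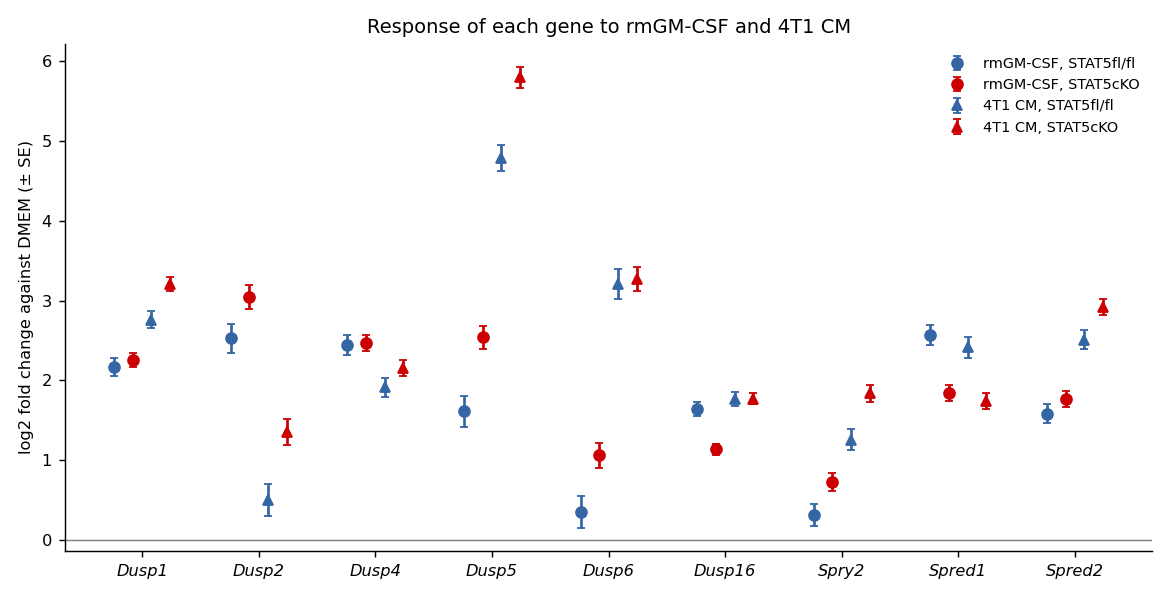
Log2 fold change (± SE) of the 9 tested genes after rmGM-CSF (circles) and 4T1 CM (triangles) against DMEM in STAT5fl/fl (blue, 2 mice) and STAT5cKO BMDMs (red, 3 mice). Dusp5 in 4T1 CM stands highest at 4.79 and 5.79, Dusp6 and Spry2 respond more to 4T1 CM than to rmGM-CSF, and Dusp2 the reverse; both responses of a genotype share its DMEM libraries.

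Set directly against rmGM-CSF, 4T1 CM gave higher levels of 5 genes and lower levels of 2 in STAT5fl/fl BMDMs (30.9% of all genes called, 14.0% higher and 17.0% lower). Dusp5 (3.17 ± 0.14), Dusp6 (2.85 ± 0.19), Spry2 (0.95 ± 0.13), Spred2 (0.93 ± 0.11) and Dusp1 (0.60 ± 0.10) were higher on the log2 scale, and Dusp2 (-2.02 ± 0.17) and Dusp4 (-0.53 ± 0.11) lower. In STAT5cKO BMDMs the same 5 genes and Dusp16 (0.63 ± 0.07) were higher and Dusp2 was lower (-1.69 ± 0.13), with 34.1% of all genes called, 16.6% higher and 17.5% lower. Spred1 was not called in either genotype (-0.16 ± 0.12 and -0.11 ± 0.10), and its libraries in both stimuli overlapped. Dusp2 and Dusp4 thus had their highest libraries in rmGM-CSF, and Dusp5, Dusp6, Spry2, Spred2 and Dusp1 theirs in 4T1 CM. Without mouse 113 Dusp1 and Dusp4 were no longer called in STAT5fl/fl (adjusted p = 0.021 and 0.035). With the mouse as a block, Dusp4 was called lower in STAT5cKO BMDMs as well (-0.31, adjusted p = 0.00047, against 0.012 without the block). DESeq2 (adjusted p = 0.0043), the likelihood ratio test (0.0060), a random term for the mouse (0.0063) and the compared libraries alone (0.0096) called Dusp4 there too. It stayed uncalled with TMM scaling and without any 1 of the STAT5cKO mice.

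The genotypes were then compared within each treatment, which asks what loss of STAT5 changes. In DMEM none of the 9 genes was called, against 2.35% of all genes tested, 0.923% higher and 1.43% lower. Spred1 was called when no filter on low counts was used (adjusted p = 0.0048), 0 of the 9 were called by DESeq2 (4.15% of all genes), and 2 (Dusp16, Spred1) had an unadjusted p under 0.05 in edgeR's test (21.2% of all genes). The log2 differences, STAT5cKO over STAT5fl/fl, ran from -0.30 (Dusp2, 95% interval -0.67 to 0.08) to 0.29 (Spred1, 0.07 to 0.52), with a median of 0.15. The libraries of Dusp4, Dusp16 and Spred1 did not overlap between the genotypes and those of the other 6 did, whereas 39.9% of all genes tested had genotypes apart.

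In rmGM-CSF 2 genes were higher (Dusp5, Dusp6) and 1 was lower (Spred1) in STAT5cKO BMDMs, whereas 9.93% of all genes tested were called, 3.78% higher and 6.16% lower. In 4T1 CM 4 genes were higher (Dusp1, Dusp4, Dusp5, Spred2) and none lower by edgeR's quasi-likelihood test, where 7.44% of all genes were called, 4.01% higher and 3.43% lower. The median log2 difference of the 9 genes was 0.25 in rmGM-CSF and 0.47 in 4T1 CM, against 0.00 and 0.01 for all genes. Ranges of single libraries were apart for all 9 genes in rmGM-CSF and for all but Dusp6 in 4T1 CM, and 49.0 and 39.3% of all genes tested had genotypes apart in those treatments.

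**Figure D4:**
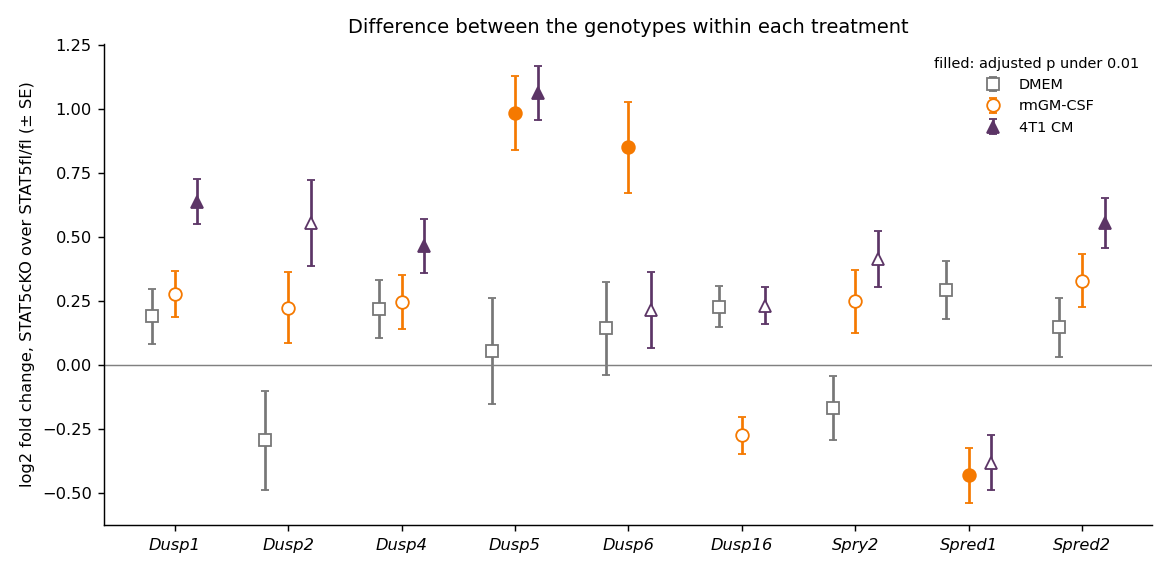
Log2 difference (± SE) between STAT5cKO (3 mice) and STAT5fl/fl BMDMs (2 mice) for the 9 tested genes in DMEM (squares), rmGM-CSF (circles) and 4T1 CM (triangles); filled symbols have an adjusted p under 0.01. Dusp5 stood near 1 in both stimuli and near 0 in DMEM, and Spred1 was at -0.43 and -0.38 in the stimuli and at 0.29 in DMEM.

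Among the nuclear inducible phosphatases, Dusp5 differed most. It measured 53.9 and 68.4 normalized CPM in the STAT5fl/fl libraries in 4T1 CM and 137, 115 and 131 in the STAT5cKO libraries. In rmGM-CSF it measured 7.42 and 6.17 against 14.3, 13.4 and 12.3, and in DMEM 2.09 and 2.32 against 2.62, 2.35 and 1.94. The STAT5cKO libraries lay above in both stimuli and overlapped the STAT5fl/fl libraries in DMEM. The log2 difference was 1.06 ± 0.11 (2.09-fold, adjusted p = 4.02e-06) in 4T1 CM and 0.98 ± 0.14 (1.98-fold, adjusted p = 0.000102) in rmGM-CSF. Dusp5 was called in both stimuli under every alternative tried.

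Dusp1 measured 80.3 and 80.7 normalized CPM in STAT5fl/fl and 128, 114 and 134 in STAT5cKO BMDMs in 4T1 CM. In rmGM-CSF it measured 55.4 and 51.1 against 66.0, 69.4 and 57.6, and in DMEM 11.3 and 12.4 against 12.1, 14.2 and 14.2. The genotypes were apart in both stimuli and overlapped in DMEM. The log2 difference was 0.64 ± 0.09 (adjusted p = 0.000106) in 4T1 CM, called under every alternative, and 0.28 ± 0.09 (adjusted p = 0.046) in rmGM-CSF. The counted Dusp1 model, chr17:26505590-26562128 on the minus strand, runs far beyond the RefSeq start. Its span holds a processed pseudogene and a sense intronic gene on the same strand. Whether reads of either entered the Dusp1 count was not tested.

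Dusp4 measured 162 and 127 against 198, 222 and 178 normalized CPM in 4T1 CM, a log2 difference of 0.47 ± 0.11 (adjusted p = 0.0063). This call was lost without mouse 113 (0.30, adjusted p = 0.16), 114 (0.47, 0.017) or 115 (0.38, 0.027) and when the 5 libraries compared were fitted alone (adjusted p = 0.063). In rmGM-CSF it measured 222 and 194 against 230.3, 263 and 247, a difference of 0.25 ± 0.10 (adjusted p = 0.12). Dusp2 was the scarcest of this class, at 3.41 and 4.34 against 5.40, 5.06 and 6.57 normalized CPM in 4T1 CM (0.55 ± 0.17, adjusted p = 0.037). In 4T1 CM every STAT5cKO library of both genes lay above every STAT5fl/fl library, as for Dusp1 and Dusp5.

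Dusp6 differed in rmGM-CSF and not detectably in 4T1 CM. Its normalized CPM in rmGM-CSF was 18.7 and 19.8 in STAT5fl/fl and 29.7, 34.7 and 40.1 in STAT5cKO libraries, a log2 difference of 0.85 ± 0.18 (1.80-fold, adjusted p = 0.0027). In 4T1 CM it was 115 and 162 against 134, 154 and 194, with overlap and a difference of 0.21 ± 0.15 (95% interval -0.08 to 0.51). The rmGM-CSF call was lost without mouse 112, 113 or 115 (adjusted p = 0.018, 0.015 and 0.013, with log2 differences of 0.81, 0.90 and 0.85).

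Dusp16, a phosphatase of JNK and p38 rather than ERK, had opposite signs in the 2 stimuli, with neither past the threshold in edgeR's quasi-likelihood test. In rmGM-CSF the STAT5cKO libraries were lower, at 54.6, 58.7 and 57.0 normalized CPM against 64.4 and 72.9 (-0.28 ± 0.07, adjusted p = 0.015), a difference that DESeq2 (adjusted p = 0.0096) and the likelihood ratio test (0.0092) called. In 4T1 CM they were higher, at 83.6, 88.9 and 90.8 against 74.9 and 74.5 (0.23 ± 0.07, adjusted p = 0.042). In DMEM they were higher as well, at 26.3, 23.9 and 27.0 against 20.9 and 23.0 (0.23 ± 0.08, adjusted p = 0.11). The difference in 4T1 CM was thus close in size to that in DMEM, where the gene was not called either. The one in rmGM-CSF had the reverse sign.

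Of the Sprouty and Spred genes, Spred1 was the exception in direction. In rmGM-CSF it measured 441 and 515 normalized CPM in STAT5fl/fl and 341, 359.9 and 363 in STAT5cKO libraries, a log2 difference of -0.43 ± 0.11 (adjusted p = 0.0099). That value sat at the threshold: it was lost with TMM scaling (adjusted p = 0.011) and with any 1 mouse left out (adjusted p from 0.012 to 0.17, highest without mouse 113). In 4T1 CM it measured 394 and 464 against 313, 315 and 359 (-0.38 ± 0.11, adjusted p = 0.025). There it was called lower by DESeq2 (adjusted p = 0.0054), by the likelihood ratio test (0.0091) and when no filter on low counts was used (6.63e-06). In DMEM the order was turned, at 75.2 and 85.8 against 116, 94.0 and 86.1. The genotypes were apart in all 3 treatments, with the STAT5cKO libraries above in DMEM and below in both stimuli.

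Spred2 had the opposite sign to Spred1 in both stimuli. It measured 95.4 and 76.0 against 118, 135 and 124 normalized CPM in 4T1 CM (0.55 ± 0.10, 1.47-fold, adjusted p = 0.00096) and 45.4 and 44.7 against 56.0, 55.3 and 58.4 in rmGM-CSF (0.33 ± 0.10, adjusted p = 0.037). The rmGM-CSF difference was called with the libraries compared fitted alone (adjusted p = 0.0019) and with no filter on low counts (0.0036). The 4T1 CM call was lost without mouse 113 (0.40, adjusted p = 0.031) and with the libraries compared fitted alone (adjusted p = 0.019). Spry2, a Sprouty protein that acts on ERK signaling from growth factor receptors, measured 19.0 and 21.8 against 27.0, 28.2 and 26.3 in 4T1 CM (0.41 ± 0.11, adjusted p = 0.017). It was called there when the mouse entered as a random term (0.42, adjusted p = 0.0057), by the likelihood ratio test (0.0047) and with no filter (0.0069).

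Whether the response itself differed between the genotypes was tested as an interaction, the log2 fold change in STAT5cKO minus that in STAT5fl/fl BMDMs. For rmGM-CSF 2 of the 9 genes were called, both with a smaller rise in STAT5cKO, where 3.16% of all genes were called, 0.884% higher and 2.28% lower. Spred1 rose 5.87-fold and 6.01-fold in the 2 STAT5fl/fl mice and 2.94-fold, 3.83-fold and 4.21-fold in the 3 STAT5cKO mice (interaction -0.73 ± 0.16, adjusted p = 0.0086). Dusp16 rose 3.08-fold and 3.17-fold against 2.08-fold, 2.45-fold and 2.11-fold (-0.50 ± 0.11, adjusted p = 0.0087). The mice of the genotypes did not overlap for either gene, nor for 35.0% of all genes tested. Leaving out 1 mouse took the adjusted p of Dusp16 to between 0.012 and 0.11 in every case and that of Spred1 past 0.01 without mouse 112 (0.050), 113 (0.079), 114 (0.042) or 115 (0.026). With the mouse as a block Dusp6 was called as well, with a larger rise in STAT5cKO (0.70, adjusted p = 0.0070, against 0.71 and 0.15 without the block). Its ratios of rmGM-CSF to DMEM were 1.44 and 1.16 in STAT5fl/fl and 1.79, 2.13 and 2.36 in STAT5cKO mice. Of the 9 interactions 7 were positive and 6 had an unadjusted p under 0.05, as did 14.8% of all genes. The highest was that of Dusp5 (0.93 ± 0.25, adjusted p = 0.043), which rose 3.54-fold and 2.66-fold in STAT5fl/fl and 5.45-fold, 5.71-fold and 6.37-fold in STAT5cKO mice, without overlap. DESeq2 called the same 2 genes as edgeR's quasi-likelihood test, with 3.94% of all genes called, and Dusp5 and Dusp6 were called as well with no filter (adjusted p = 0.0015 and 2.42e-05).

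For 4T1 CM none of the 9 interactions was called (1.31% of all genes were, 0.761% higher and 0.546% lower), with edgeR's quasi-likelihood test, whereas 6 had an unadjusted p under 0.05 (14.3% of all genes) and DESeq2 called 2, Dusp5 and Spred1 (2.63% of all genes). Dusp5 rose 25.7-fold and 29.5-fold in STAT5fl/fl mice and 52.4-fold, 48.8-fold and 67.5-fold in STAT5cKO mice (1.01 ± 0.23, adjusted p = 0.023). Spred1 rose 5.24-fold and 5.41-fold against 2.70-fold, 3.35-fold and 4.16-fold (-0.68 ± 0.16, adjusted p = 0.023), and this was called with the mouse as a block (-0.67, adjusted p = 0.0054). The mice of the genotypes did not overlap for either gene, nor for 29.8% of all genes tested. Dusp6 rose with overlap, 8.86-fold and 9.51-fold against 8.07-fold, 9.44-fold and 11.4-fold (0.07 ± 0.23, 95% interval -0.39 to 0.53).

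**Figure D5:**
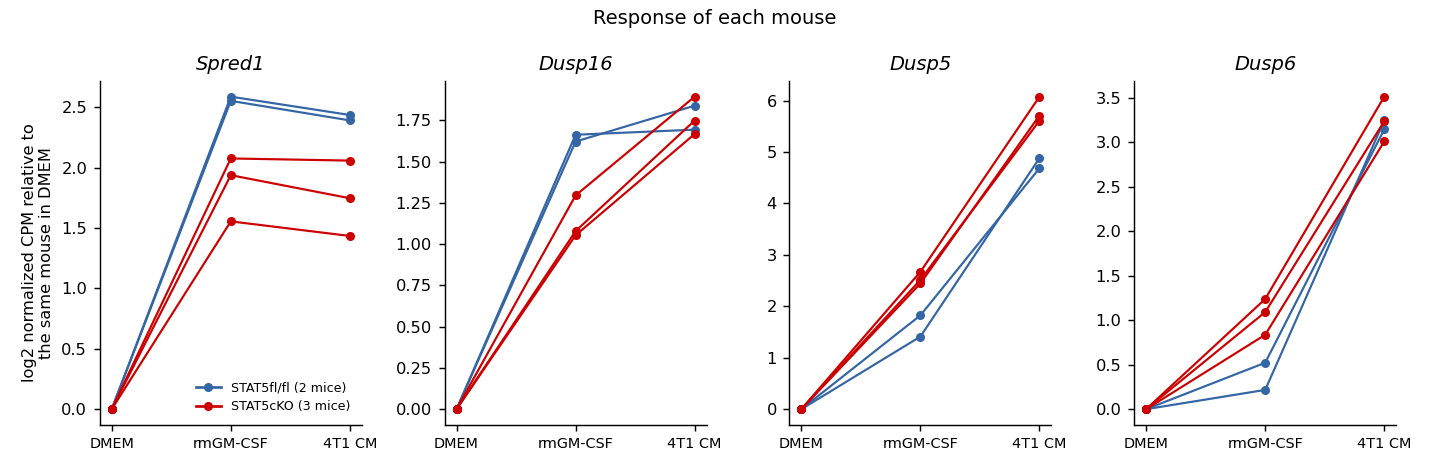
Log2 normalized CPM of Spred1, Dusp16, Dusp5 and Dusp6 in each mouse relative to the same mouse in DMEM, with STAT5fl/fl in blue (2 mice) and STAT5cKO in red (3 mice). For Spred1 the STAT5cKO lines lie below in both stimuli, for Dusp16 in rmGM-CSF and not in 4T1 CM, for Dusp5 they lie above in both, and for Dusp6 above in rmGM-CSF and overlapping in 4T1 CM.

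For the difference between the stimuli, none of the 9 genes was called by edgeR's quasi-likelihood test without the block (1.43% of all genes were, 1.28% higher and 0.146% lower), and 3 had an unadjusted p under 0.05 (12.3% of all genes). Dusp16 was just short of the threshold (0.51 ± 0.10, adjusted p = 0.010). It was called with TMM scaling (adjusted p = 0.0096), a random term for the mouse (0.0048), no filter (0.0023), the likelihood ratio test (0.0011) and DESeq2 (0.00099, with 2.35% of all genes called), and Dusp6 was called with no filter (5.0e-05). With the mouse as a block 2 were called, Dusp16 (adjusted p = 0.0057) and Dusp6 (adjusted p = 0.0097). The ratio of 4T1 CM to rmGM-CSF was 1.16 and 1.02 in STAT5fl/fl and 1.53, 1.51 and 1.59 in STAT5cKO mice for Dusp16, and 6.17 and 8.18 against 4.52, 4.43 and 4.84 for Dusp6. The genotypes were apart for both genes, as they were for 29.2% of all genes tested.

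Across the 15 libraries, the pairs of these genes that moved most alike were Dusp5 with Spry2 (Pearson r 0.985) and Dusp1 with Spred2 (0.984), and the least alike were Dusp2 with Dusp6 (0.079). Among 8933 other genes with a mean log2 CPM over 3, the closest to Dusp5 was Snx18, a sorting nexin (0.991), to Dusp6 Smim3 (0.995), to Dusp1 Gna13, a G protein α subunit (0.990), to Dusp16 Trib1, a pseudokinase (0.989), to Spred1 Rbpj, the transcription factor of Notch signaling (0.991), to Spred2 Cdk17 (0.991), to Spry2 Pxn, the focal adhesion protein paxillin (0.986), to Dusp4 Zfp263 (0.989) and to Dusp2 Tnfaip3, an inhibitor of NF-κB (0.984). The second closest included Il1b for Spred1 (0.989), Myc for Dusp16 (0.987) and Cxcl1 for Dusp2 (0.977). These correlations run over libraries that share mice and treatments and are a description without a test.

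Other genes of the pathway were counted from lists chosen by function, with earlier results of these data known. Of 7 further MAP kinase phosphatase, Sprouty and Spred genes 5 were tested, and Dusp7, a phosphatase of ERK, was the only gene called between the genotypes, lower in STAT5cKO in rmGM-CSF (-0.61 ± 0.09, 33.2 against 50.9 mean normalized CPM). In 4T1 CM 3 of the 5 rose in STAT5fl/fl BMDMs (Dusp7 0.84, Dusp9 0.86, Spred3 1.04 on the log2 scale), and in STAT5cKO 4 rose (Dusp7 0.79, Dusp10 1.24, Dusp9 0.67, and Spred3 with a mean of 3.65 against 1.83 normalized CPM) and Dusp8, a phosphatase of JNK and p38 named here after its value was seen, fell by 0.66. Of 8 tested dual-specificity phosphatases outside the MAP kinase phosphatase class, none was called between the genotypes in any treatment (log2 differences from -0.58 to 0.40 in rmGM-CSF). None of them rose in 4T1 CM and 2 fell in each genotype, Dusp3 in both (-0.51 and -0.43). Of all genes tested, 19.1% in STAT5fl/fl and 19.0% in STAT5cKO rose in 4T1 CM, and 18.0 and 18.2% fell. Between the genotypes in rmGM-CSF, 3.78% of all genes were higher and 6.16% lower.

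In the ERK cascade, 23 genes from receptor to kinase, 3 were lower in STAT5cKO BMDMs in rmGM-CSF and none higher, beside 6.16 and 3.78% of all genes: Csf2rb (-1.21 ± 0.07), its mouse paralog Csf2rb2 (-0.73 ± 0.07), which share sequence so that reads may be split between them, and the scaffold Ksr1 (-0.81 ± 0.17). In 4T1 CM 2 were lower, Csf2rb (-0.61 ± 0.07) and Csf2rb2 (-0.39 ± 0.07), and in DMEM 1 was, the adaptor Gab2 (-0.34 ± 0.06). Of all genes, 3.43% were lower and 4.01% higher in 4T1 CM, and 1.43 and 0.923% in DMEM. The shares of each treatment stand beside the 2 lists that follow as well. Of 15 tested genes of the JNK and p38 cascades, 1 was higher and 3 were lower in rmGM-CSF, among them the p38 substrate kinase Mapkapk3 (-1.14 ± 0.08) and the p38 activator Map2k3 (-0.48 ± 0.07), with p38α itself, Mapk14, higher (0.34 ± 0.06). In 4T1 CM 2 were higher, Mapk14 (0.42 ± 0.06) and the JNK gene Mapk8 (0.42 ± 0.10), and 2 lower, Mapkapk3 (-0.42 ± 0.08) and Map2k3 (-0.30 ± 0.07). Of 14 other inhibitors of RAS and ERK signaling, Errfi1, an inhibitor of ERBB receptors, was lower in rmGM-CSF (-1.11 ± 0.12) and the adaptor Dok3 higher (0.54 ± 0.09), and in 4T1 CM the RAS GTPase-activating gene Rasa2 was higher (0.40 ± 0.09). In DMEM 2 of this list were lower, the ubiquitin ligase Cblb (-0.48 ± 0.08) and the RAS GTPase-activating gene Rasa3 (-0.37 ± 0.07). Errfi1 had the largest rise of this list in 4T1 CM, by 4.76 ± 0.15 on the log2 scale in STAT5fl/fl and 5.29 ± 0.12 in STAT5cKO BMDMs.

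Of 20 tested immediate early and ERK-induced genes, which are transcribed within minutes to hours of MAPK activation, 18 rose and 1 fell in 4T1 CM in STAT5fl/fl BMDMs, and 17 rose and 2 fell in STAT5cKO. Among all genes tested, 19.1 and 19.0% rose there and 18.0 and 18.2% fell. In rmGM-CSF 14 of the 20 rose in STAT5fl/fl (16.0% of all genes higher, 12.7% lower). In STAT5cKO 16 of the 20 rose and 1 fell (13.4% of all genes higher, 23.5% called in either direction). Between the genotypes 8 were higher and 1 lower in STAT5cKO in 4T1 CM (median log2 difference 0.29 against 0.01 for all genes), the called genes including Fosb (2.30 ± 0.17), Phlda1 (1.06 ± 0.14), Fos (0.70 ± 0.11) and, lower, Egr2 (-2.03 ± 0.10). In rmGM-CSF 3 were higher and 5 lower (median -0.16), with Fos higher (1.78 ± 0.12) and Ier3 (-1.83 ± 0.10), Egr2 (-1.42 ± 0.09) and Atf3 (-0.89 ± 0.08) lower. In DMEM Fos alone was called, higher in STAT5cKO (0.79 ± 0.12). Of 9 known STAT5 targets 7 were lower and 1 was higher in rmGM-CSF, and 4 were lower and 1 higher in 4T1 CM, with Cish, a STAT5-induced inhibitor of cytokine receptors, at -5.99 ± 0.11 and -4.13 ± 0.12 and Bcl6, a gene that STAT5 represses, at 4.02 ± 0.08 and 2.78 ± 0.08. Beside these genotype counts, 6.16% of all genes were lower and 3.78% higher in rmGM-CSF, 3.43 and 4.01% in 4T1 CM and 1.43 and 0.923% in DMEM.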

How the data were processed

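RNA was sequenced from 15 BMDM cultures, 3 from each of 5 mice, as stranded TruSeq libraries. Per the submitters' processing notes and the methods, the authors trimmed reads with Trimmomatic 0.33, aligned them to GRCm38 with HISAT2 2.1.0 and counted them by strand per gene of Ensembl release 99 with featureCounts 1.6.2 (mapping quality at least 10). The deposited values are raw counts per gene. Genes over 1 CPM in at least 2 libraries (13005) were tested with edgeR 4.0.16 (R 4.3.3): relative log expression factors, 1 model of all 6 groups, a quasi-likelihood F-test and Benjamini-Hochberg adjustment over all genes tested, called under 0.01. The scaling, filter and threshold are those of the study's methods, which name a linear model in edgeR and mention no block for the mouse; the quasi-likelihood test and the single model were chosen here. SE is the log2 fold change divided by the square root of F. Normalized CPM uses the same factors, and TPM the deposited gene lengths.

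The number that opens each title was taken as the mouse. Same-numbered libraries deviated together from their group means (mean correlation 0.157 over 9 pairs in STAT5cKO, lowest 0.0548, and 0.142 over 3 distinct values in STAT5fl/fl, where the deviations of 2 mice mirror each other). On that reading of the number, the fit with the mouse as a block was run as an alternative, beside TMM scaling, no filter, DESeq2 1.42.0, a likelihood ratio test, a threshold of 0.05, the compared libraries alone, a random effect for the mouse (limma 3.58.1), and each mouse left out. All 10 genes, Stat5a and Stat5b were named by rule, as were the called genes of each pathway list, at most 4 by adjusted p, and the genes most correlated with each tested member whose group means span at least 1 log2 unit. The members, lists and this rule were chosen with earlier results of these data known.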

Additional observations from a re-analysis of the deposited data

Results flagged for a closer look

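The effect of rmGM-CSF differed between the genotypes for 2 of the 9 tested genes, by a test of the difference itself (edgeR interaction term). Spred1 had an interaction of -0.73 on the log2 scale (SE 0.16, adjusted p = 0.00862) and Dusp16 one of -0.50 (SE 0.11, adjusted p = 0.00871), both with a smaller rise in each of the 3 STAT5cKO mice than in either STAT5fl/fl mouse. With 1 mouse left out, Dusp16 was called in none of the fits and Spred1 only in that without mouse 116. Dusp16 was also not called with the compared libraries alone. Over all settings the interaction ran from -0.58 to -0.46 for Dusp16 and from -0.83 to -0.57 for Spred1. Groups of 2 and 3 libraries are too small for a test of single outlying samples.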

How the results depend on the processing

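Between DMEM and either stimulus the counts of members called stayed within 1.5 times under all alternatives. Of the 56 calls over the 12 comparisons, 8 were lost under at least 1 of 13 settings and 0 changed sign, and 17 of 52 values not called were called under at least 1. The counts of members called that moved were these, and the cause was not tested. Between the genotypes, no filter on low counts gave 1 in DMEM (main fit 0), and a threshold of 0.05 gave 6 in rmGM-CSF (3) and 8 in 4T1 CM (4), where the compared libraries alone gave 2. For the interaction with rmGM-CSF (2), no filter gave 4 and the compared libraries alone 1. For the interaction with 4T1 CM (0), no filter, DESeq2, the likelihood ratio test and a threshold of 0.05 each gave 2 and the replicate block 1. For the difference between the stimuli (0), no filter and the replicate block, which pairs the libraries of a mouse, gave 2 each, and TMM, DESeq2, the likelihood ratio test, a threshold of 0.05 and the mouse as a random effect 1 each. The block changed no other call than those given beside the results (Dusp4, Dusp6, Dusp16, Spred1). No paired analysis was possible because the genotypes share no mouse in the comparisons within a treatment.

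With each mouse left out, which leaves 1 STAT5fl/fl library in a group where the omitted mouse is 112 or 113 and assumes that it varies like the others, the members called ranged from 1 to 2 between the genotypes in rmGM-CSF (1 without 112, 113 or 115), from 2 (without 113) to 4 in 4T1 CM and from 0 to 1 for the interaction with rmGM-CSF. Some values not called changed sign, as follows with their range over the 5 mice left out. In DMEM the log2 difference of Dusp5 ran from -0.0467 (without 114, and -0.0156 without 112) to 0.167, of Dusp6 from -0.0336 (without 112) to 0.355 and of Spred2 from -0.0131 (without 112) to 0.334, and in 4T1 CM that of Dusp6 from -0.00952 (without 112) to 0.477. The interaction with rmGM-CSF ran from -0.0412 (without 113, and -0.00101 without 114) to 0.210 for Dusp1, from -0.0336 (without 113) to 0.0938 for Dusp4 and from -0.0166 (without 113) to 0.354 for Spred2. That with 4T1 CM ran from -0.0733 (without 113, and -0.0541 without 115) to 0.0763 for Dusp16 and from -0.0720 (without 116) to 0.185 for Dusp6, and that between the stimuli from -0.215 (without 112) to 0.389 for Dusp5. The arms of 2 and 3 mice limit the precision, with SEs of the members' genotype differences from 0.07 to 0.21.

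Counts over all genes tested moved by more than 1.5 times as well. Between the genotypes in DMEM (306 called) DESeq2 called 540, the likelihood ratio test 608, no filter 841 and a threshold of 0.05 883. In rmGM-CSF (1292) the threshold of 0.05 gave 2205. In 4T1 CM (968) no filter gave 1552, 0.05 gave 1910 and the compared libraries alone 285. For the interaction with rmGM-CSF (411) no filter gave 662 and 0.05 gave 631. For that with 4T1 CM (170) DESeq2 gave 342, the likelihood ratio test 332, no filter 477, 0.05 426, the replicate block 295 and the compared libraries alone 85. Between the stimuli (186) the values were 305, 302, 434 and 349 for the first 4 of these. With 1 mouse left out the lowest counts came without mouse 113, at 47, 561 and 326 between the genotypes in DMEM, rmGM-CSF and 4T1 CM, and at 133, 26 and 73 for the 3 interactions. In STAT5fl/fl it gave 1769 genes for rmGM-CSF and 2672 for 4T1 CM against DMEM and 1727 between the stimuli (3730, 4835 and 4023 with all mice), and without mouse 112 these were 1967, 3221 and 2644. In STAT5cKO the count for rmGM-CSF (3052) was 1981, 1824 and 2037 without mouse 114, 115 and 116.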
